A study of Mus musculus with 15 samples.

Results

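The genes described here encode enzymes and regulators that build and break down sphingolipids, gangliosides and phosphatidylserine, and their transcripts were measured in mouse cerebral cortex and striatum with and without Slc1a4, which encodes ASCT1, a transporter of neutral amino acids. A total of 36 genes was named for this group. A gene was kept where the deposited table has a line under its symbol with a normalized count of 10 or more in at least 3 of the 15 libraries, and 34 of the 36 were kept, among 17030 genes that met the same minimum and 26595 in the table. Sptlc3, a catalytic subunit of serine palmitoyltransferase, was below the minimum, with 10 or more in 2 libraries. Cers1 was matched by no symbol: the identifier that the GENCODE M21 annotation names Cers1 (ENSMUSG00000087408) carries the symbol Gdf1 in the table, and it was left out of the 34.

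All animals were C57Bl/6 males 5 months old, and their genotype was Wild Type (WT) or SLC1a4 -/- (KO). There were 4 libraries of WT cortex and 4 of WT striatum (replicates 5 to 8 in both), 4 of KO cortex (replicates 1 to 4) and 3 of KO striatum (replicates 2 to 4). The deleted stretch of the gene is not in the labels, and neither is whether each replicate came from its own animal. The p-values therefore gauge the spread among these libraries only, which may be technical. Values are normalized counts, that is, read counts divided by 1 factor per library. Gene positions are those of the GENCODE M21 annotation (GRCm38).

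Sphingolipid synthesis starts when serine palmitoyltransferase joins L-serine to a fatty acyl-CoA, and ORMDL proteins hold that enzyme back when ceramide is plentiful. Ceramide synthases and desaturases make ceramide, from which cells make sphingomyelin, the galactolipids of myelin, and glucosylceramide, the base on which gangliosides of neuronal membranes are built. Ceramidases and sphingomyelinases run the reverse direction, and sphingosine kinases make the signalling lipid sphingosine-1-phosphate. Phosphatidylserine, a phospholipid of the inner face of the plasma membrane, also takes its head group from serine. ASCT1 carries serine among other small neutral amino acids.

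Libraries held 26791109 to 30276815 counted reads in cortex (8 libraries) and 22990233 to 25697792 in striatum (7 libraries). Slc1a4 stood at 249 to 308 in KO cortex against 1494 to 1797 in WT cortex, and at 158 to 344 in KO striatum against 1237 to 1726 in WT striatum, with no overlap (log2 fold changes -2.61 and -2.56, limma adjusted p = 1.2e-05 and 2.3e-05). By an exact two-sided permutation test p was 0.029 in each tissue. Markers followed the tissue labels: all 18 markers of striatal projection neurons were called higher in WT striatum than in WT cortex (median log2 fold change 3.45), and 12 of 13 markers of cortical excitatory neurons were called lower (median -3.93). No marker of the lists was at 0 in all libraries of a group, except Mia, 1 of 10 ependymal markers, in KO cortex. In bulk tissue, fewer cells of a type and less RNA per cell cannot be told apart. Of the 7 striatum libraries, 3 stood apart. The summed normalized count of 14 choroid plexus markers was 151410 in WT striatum replicate 5 and 93310 in KO striatum replicate 4, against 2010 to 7167 in the other 5. The sum of 12 markers of the thalamus, septum and pallidum, which border the striatum, was 49015 in KO striatum replicate 4 and 29501 in WT striatum replicate 8, against 6998 to 13317 in the other 5. The sum of the 18 striatal projection neuron markers was lowest in the same 2 libraries, at 80809 and 146342, against 164370 to 300923. Results that rest on these libraries are given with and without them.

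The tissues differed in these genes far more than the genotypes did. Between WT striatum and WT cortex, 19 of the 34 genes were called (limma, adjusted p below 0.05 over all 17030 genes), against 50.5% of all genes tested. A total of 12 was higher in striatum (24.9% of all genes were called higher) and 7 were lower (25.7% of all genes). The libraries of WT striatum and WT cortex did not overlap for 18 of the 34, against 47.3% of all genes. In KO mice 15 of the 34 were called between striatum and cortex, against 37.9% of all genes, with 9 higher (18.4% of all genes) and 6 lower (19.5%). The groups did not overlap for 17 of the 34 (41.5% of all genes). The same 13 genes were called in the same direction in both genotypes, 8 higher and 5 lower, against 33.8% of all genes. These 13 are 68.4% of the calls in WT and 86.7% of the calls in KO, from comparisons that share no library but share 1 estimate of the spread. Over all genes 5758 were called in the same direction in both, of 8601 called in WT and 6451 in KO. As shares of the 34, 55.9% were called in WT, 44.1% in KO and 38.2% in both. Those called higher were 35.3% in WT and 26.5% in KO, above the shares of all genes, and those called lower were 20.6% and 17.6%, below them. Whether these shares differ from those of all genes was not tested. The difference between the KO and WT tissue effects, tested gene by gene, was called for none of the 34, so a gene called in 1 genotype only is not shown to differ between them. The median log2 fold change between striatum and cortex over the 34 was 0.088 in WT and 0.12 in KO, against 0.0058 and 0.0024 over all genes.

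**Figure D1:**
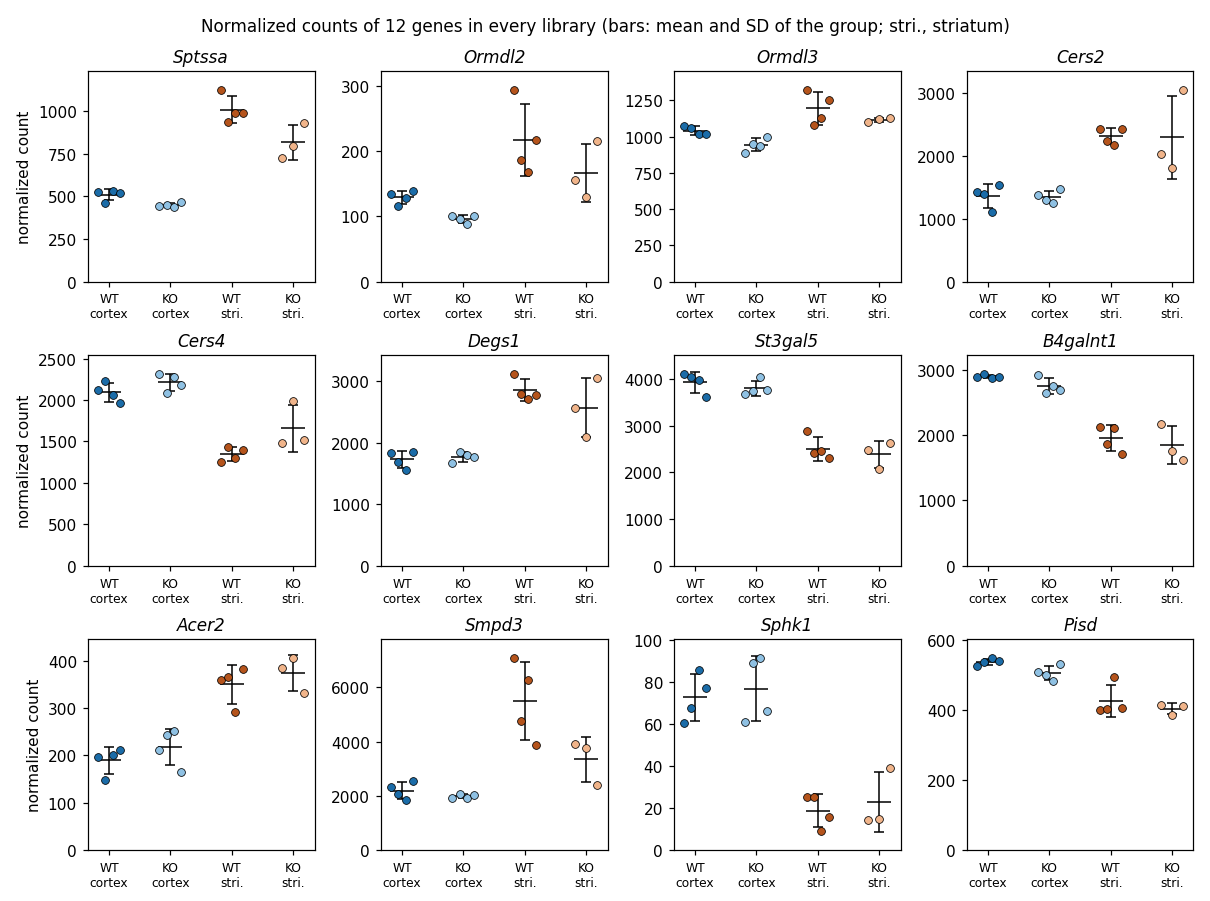
Normalized count (vertical axes, each from 0) of 12 genes in each library, by group (horizontal axis), where points are libraries and bars the group mean and SD. The WT striatum libraries of Sptssa (936 to 1123) lie above every cortex library (440 to 529), and those of Sphk1 (8.97 to 25.4) lie below every cortex library (60.3 to 91.3).

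Serine palmitoyltransferase, the enzyme of the first step, has a pair of large subunits and a small one. Transcripts of both large subunits that were measured and of the small subunit Sptssa were higher in WT striatum than in WT cortex, and Sptssb was not called. Sptssa (ENSMUSG00000044408, chromosome 12, 54645392 to 54656573, minus strand), which raises the activity of the enzyme, read 524.5, 463, 529 and 521 normalized counts in WT cortex and 1123, 936, 989 and 986 in WT striatum. In KO cortex it read 445.5, 447, 440.1 and 467.5, and in KO striatum 724, 796 and 929. Every striatum library of either genotype stood above every cortex library. The tissue difference was a log2 fold change of 0.98, SE 0.080, limma adjusted p = 2.5e-07 in WT and 0.85, SE 0.087, limma adjusted p = 4.5e-06 in KO. With values divided by exon length, Sptssa went from the 12th to the 5th place among the 34 genes between WT cortex and WT striatum.

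Sptlc2 (ENSMUSG00000021036, chromosome 12, 87305058 to 87388355, minus strand), the catalytic large subunit, read 923, 898, 821 and 1001 in WT cortex and 1181, 1199, 1212 and 1600 in WT striatum. KO cortex gave 914, 973, 1014 and 992 and KO striatum 1133, 1171 and 2004. The tissues did not overlap in either genotype, and 2 striatum libraries stood well above the others, KO replicate 4 and WT replicate 8, the same that were rich in thalamic, septal and pallidal markers. The difference between striatum and cortex was a log2 fold change of 0.50, SE 0.15, limma adjusted p = 0.012 in WT and 0.51, SE 0.16, limma adjusted p = 0.022 in KO. Without KO striatum replicate 4 the KO difference was 0.24 and was not called (limma adjusted p = 0.1), and without KO cortex replicate 1 it was 0.48 (adjusted p = 0.054). Sptlc1, the other large subunit, differed less, at 724 ± 24.1 (SD, n = 4) in WT cortex and 821 ± 32.8 (SD, n = 4) in WT striatum (log2 fold change 0.18, SE 0.055, limma adjusted p = 0.013), and was not called in KO (log2 fold change 0.10, SE 0.059, limma adjusted p = 0.2).

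The small subunit Sptssb, which shifts the enzyme to longer acyl chains, had the widest standard errors of the 34 genes between tissues. It read 86.6, 91.3, 81.35 and 92.2 in WT cortex and 127, 146, 140.2 and 278 in WT striatum, with the highest value in replicate 8. KO cortex gave 77.5, 72.1, 95.7 and 92.4, while KO striatum gave 48.2, 65.7 and 399 in replicates 2 to 4. KO striatum thus held both the lowest and the highest libraries of all 15, and the gene was not called between tissues in WT (log2 fold change 0.90, SE 0.47, limma adjusted p = 0.12) or KO (log2 fold change 0.37, SE 0.51, limma adjusted p = 0.6). Sptlc3 read 0 to 4.40 in the 8 cortex libraries and 34.1 in WT striatum replicate 5 and 30.7 in KO striatum replicate 4, the libraries rich in choroid plexus markers, against 0 to 8.35 in the other 5 striatum libraries. The part of choroid plexus or neighbouring tissue in these values was not tested.

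The 3 ORMDL proteins are the brakes on serine palmitoyltransferase. Transcripts of all 3 were called higher in WT striatum (24.9% of all genes were), as were Sptlc1, Sptlc2 and Sptssa of the enzyme. Ormdl2 (ENSMUSG00000025353, chromosome 10, 128817902 to 128821645, minus strand) read 134, 116, 128 and 139 in WT cortex and 293, 187, 168 and 217 in WT striatum. It read 101, 95.45, 87.7 and 99.8 in KO cortex and 155.5, 129 and 215 in KO striatum. Striatum was above cortex without overlap within each genotype, with the highest library in WT striatum replicate 5. The differences were log2 fold changes of 0.71, SE 0.17, limma adjusted p = 0.0031 in WT and 0.76, SE 0.185, limma adjusted p = 0.0049 in KO, and without the 3 striatum libraries that stood apart the WT difference was 0.46 (limma adjusted p = 0.011). Of the exon bases of Ormdl2, 66.7% are shared with Dnajc14 on the opposite strand, and whether the counting used strand is not given in the sources used here, so the count is uncertain. Dnajc14 itself was not called in WT (log2 fold change -0.040, SE 0.051, limma adjusted p = 0.54).

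Ormdl3 (ENSMUSG00000038150, chromosome 11, 98581256 to 98587368, minus strand) read 1075, 1058, 1016 and 1019 in WT cortex and 1322, 1080, 1127 and 1252 in WT striatum, and 889, 949.8, 937 and 997 in KO cortex and 1101, 1119 and 1127 in KO striatum. The tissues did not overlap within a genotype, although the lowest WT striatum library lay close to the highest WT cortex library. The differences were small, log2 fold changes of 0.19, SE 0.064, limma adjusted p = 0.02 in WT and 0.24, SE 0.069, limma adjusted p = 0.012 in KO. The WT call was lost without WT striatum replicate 5 (0.14, adjusted p = 0.066), without WT striatum replicate 8 (0.17, adjusted p = 0.054) and without the 3 libraries that stood apart (0.083, adjusted p = 0.27). Ormdl1 stood at 175 ± 13.7 (SD, n = 4) in WT cortex and 220.2 ± 20.1 (SD, n = 4) in WT striatum (log2 fold change 0.33, SE 0.12, limma adjusted p = 0.031), and this call was lost without WT cortex replicate 6 or 8 or WT striatum replicate 6 or 7 (0.28 to 0.32, adjusted p = 0.068 to 0.087). In KO its difference was a log2 fold change of 0.33, SE 0.13, limma adjusted p = 0.054, not called. Per kilobase of exon, Ormdl3 made up 80.6% ± 1.0 of the summed Ormdl level in WT cortex (SD, n = 4) and 75.7% ± 1.8 in WT striatum (SD, n = 4), and Ormdl2 13.1% ± 1.0 and 17.7% ± 2.6. These shares are uncertain, because 66.7% of the exon bases of Ormdl2 are shared with Dnajc14 and the strand setting is not given.

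The promoters of Sptssa and the 3 Ormdl genes are shown, a choice among the 12 genes called higher in WT striatum. Promoters of the other genes called higher were not searched, and the calls of Ormdl1 and Ormdl3 were lost in some alternatives. Each is the 250 bases before the RefSeq start (GRCm38.p6), 5′ to 3′ on the gene's strand, with every CCAAT, on either strand (CCAAT or ATTGG), in capitals. The windows are chr12:54656573-54656822 (minus strand) for Sptssa, chr1:53296845-53297094 (plus strand) for Ormdl1, chr10:128821630-128821879 (minus strand) for Ormdl2 and chr11:98587246-98587495 (minus strand) for Ormdl3. RefSeq entries were matched for 32 of the 36 symbols. By GENCODE M21, Ormdl3 begins at 98587368 and Ormdl2 at 128821645 on the minus strand, so part of their windows lies inside the gene.
Sptssa: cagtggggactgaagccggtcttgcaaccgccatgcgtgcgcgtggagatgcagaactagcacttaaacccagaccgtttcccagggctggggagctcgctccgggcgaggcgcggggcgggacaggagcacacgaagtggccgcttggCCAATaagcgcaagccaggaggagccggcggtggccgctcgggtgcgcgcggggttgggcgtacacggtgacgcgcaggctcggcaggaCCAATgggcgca
Ormdl1: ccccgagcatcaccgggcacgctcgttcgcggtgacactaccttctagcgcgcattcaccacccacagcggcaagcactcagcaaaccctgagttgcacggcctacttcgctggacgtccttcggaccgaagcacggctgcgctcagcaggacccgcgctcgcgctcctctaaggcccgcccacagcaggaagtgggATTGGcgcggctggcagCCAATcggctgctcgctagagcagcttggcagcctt
Ormdl2: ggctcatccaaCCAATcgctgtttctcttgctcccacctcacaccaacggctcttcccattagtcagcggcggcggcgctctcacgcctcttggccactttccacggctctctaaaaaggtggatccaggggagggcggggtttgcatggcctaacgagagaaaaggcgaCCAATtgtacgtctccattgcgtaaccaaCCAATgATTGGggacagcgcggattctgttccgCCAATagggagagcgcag
Ormdl3: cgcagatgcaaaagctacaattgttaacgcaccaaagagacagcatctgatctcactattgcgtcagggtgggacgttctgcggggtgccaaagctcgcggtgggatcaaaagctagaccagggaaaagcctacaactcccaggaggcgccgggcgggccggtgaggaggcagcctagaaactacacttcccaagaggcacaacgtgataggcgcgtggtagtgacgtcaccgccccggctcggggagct
Ormdl2 has 5 CCAAT matches, none overlapping, of which 4 lie within 80 bases of the start, and 0.213% of 32851 RefSeq windows of this length hold 5 or more. Sptssa and Ormdl1 have 2 each (10.1% of windows hold 2 or more), and Ormdl3 has 0 (33.8% hold at least 1). The GC box (GGGCGG or CCGCCC) occurs in all 4, once in Sptssa, Ormdl1 and Ormdl2 and 2 times in Ormdl3, and in 32.7% of windows. Ormdl3 alone of the 4 has the cAMP response element TGACGTCA, which reads the same on both strands and occurs in 1.55% of windows. In Ormdl3 this element and both GC boxes lie in the part of the window that is inside the gene by GENCODE M21. None of the 4 holds CACGTG, the same on both strands (6.02% of windows), or TATAAA on either strand (12.4%). These are matches of letters and not tests of binding.

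The enzymes that lead from the first product to ceramide split by direction. Cers2 and Degs1 were higher and Cers4 lower in striatum in both genotypes, Cers6 was called in WT, and Kdsr, Cers5 and Degs2 were called in neither genotype. Cers2 (ENSMUSG00000015714, chromosome 3, 95314791 to 95323599, plus strand), the ceramide synthase of very long acyl chains that myelin lipids carry, read 1430, 1398, 1103 and 1545 in WT cortex and 2435, 2242, 2175 and 2426 in WT striatum. KO cortex gave 1376, 1303, 1251 and 1480 and KO striatum 2035, 1816 and 3052. Every striatum library was above every cortex library, with KO striatum replicate 4 the highest. The tissue difference was a log2 fold change of 0.77, SE 0.135, limma adjusted p = 0.00028 in WT and 0.73, SE 0.145, limma adjusted p = 0.0012 in KO, where it was 0.51 without replicate 4 of KO striatum and still called.

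Degs1 (ENSMUSG00000038633, chromosome 1, 182275772 to 182282804, minus strand) encodes the desaturase that turns dihydroceramide into ceramide. It read 1833, 1683, 1558 and 1844 in WT cortex and 3108, 2794, 2711 and 2769 in WT striatum, and 1663, 1851, 1794 and 1768 in KO cortex and 2553, 2096 and 3047 in KO striatum. Again no striatum library reached down to the cortex range. The differences were log2 fold changes of 0.72, SE 0.094, limma adjusted p = 2.1e-05 in WT and 0.52, SE 0.10, limma adjusted p = 0.0011 in KO. Per kilobase of exon Degs1 had the highest mean of the 34 genes in striatum, 1098 in WT and 990.1 in KO, and the fourth highest in cortex, 667 in WT and 683 in KO. Its homologue Degs2, which also hydroxylates, was low throughout, at 24.6 per kilobase in WT striatum and 27.7 in WT cortex, and was not called (log2 fold change -0.165, SE 0.175, limma adjusted p = 0.45 in WT).

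Cers4 (ENSMUSG00000008206, chromosome 8, 4493026 to 4531680, plus strand), a ceramide synthase of long acyl chains, went the other way. It read 2120, 2227, 2058 and 1960 in WT cortex and 1251, 1439, 1306 and 1396 in WT striatum, and 2311, 2083, 2274 and 2181 in KO cortex and 1480, 1986 and 1517 in KO striatum. All striatum libraries were below all cortex libraries except KO striatum replicate 3, which lay above the lowest WT cortex library and below every KO cortex library. The difference was a log2 fold change of -0.63, SE 0.084, limma adjusted p = 2.4e-05 in WT and -0.425, SE 0.090, limma adjusted p = 0.002 in KO. Cers6, which prefers shorter chains, read 1528, 1489, 1495 and 1891 in WT cortex and 936, 1329, 1345 and 1236 in WT striatum (log2 fold change -0.41, SE 0.14, limma adjusted p = 0.025). The tissues did not overlap in WT, and the call was lost without WT cortex replicate 8 (-0.33, adjusted p = 0.083) or WT striatum replicate 5 (-0.29, adjusted p = 0.085). In KO, where KO striatum replicate 4 was lowest at 1043 and the other 2 striatum libraries lay within the cortex range, Cers6 was not called (log2 fold change -0.29, SE 0.15, limma adjusted p = 0.15).

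The makeup of the ceramide synthase transcripts is given as shares, a description with no test. The shares depend on the exon lengths that divide the counts, 3676 bases for Cers2, 12264 for Cers4, 3542 for Cers5 and 8875 for Cers6. By normalized count alone, Cers4 had the highest mean of these genes in WT cortex, 2091, against 1369 for Cers2. Per kilobase of exon, Cers2 made up 38.7% ± 2.5 of the sum of Cers2, Cers4, Cers5 and Cers6 in WT cortex (SD, n = 4) and 57.3% ± 2.2 in WT striatum (SD, n = 4). In KO it was 37.5% ± 2.2 in cortex (SD, n = 4) and 53.8% ± 8.7 in striatum (SD, n = 3), where the 3 libraries ran from 46.9% to 63.6%. Cers4 was 17.9% ± 1.9 in WT cortex and 9.98% ± 0.55 in WT striatum, and Cers6 18.8% ± 1.4 and 12.4% ± 2.1. Cers5, the other synthase of shorter chains, had nearly the same normalized count in each tissue, 831 ± 50.6 (SD, n = 4) in WT cortex and 794.5 ± 52.8 (SD, n = 4) in WT striatum (log2 fold change -0.065, SE 0.067, limma adjusted p = 0.44), and so did Kdsr, the reductase of the second step, at 1012 ± 64.3 (SD, n = 4) and 1035 ± 24.8 (SD, n = 4), with a log2 fold change of 0.034, SE 0.056, limma adjusted p = 0.64. The Gdf1-labelled identifier of Cers1 read 722 to 1064 in the 15 libraries and was not called in WT (log2 fold change -0.082, SE 0.093, limma adjusted p = 0.48).

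**Figure D2:**
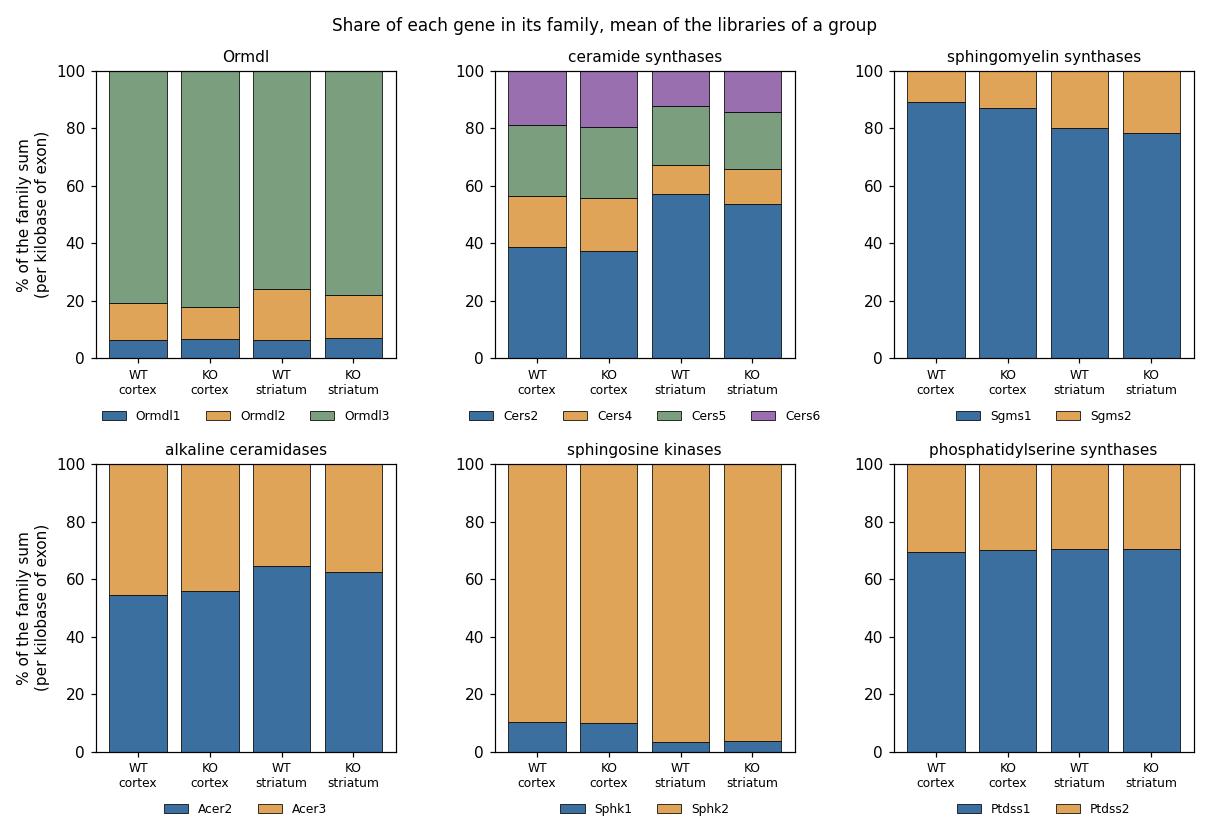
Share of each gene (vertical axes, percent) in the sum of its enzyme family per kilobase of exon, as the mean over the libraries of each group (horizontal axes). Cers2 takes 38.7% of the ceramide synthase sum in WT cortex and 57.3% in WT striatum, while Ptdss1 takes 69.3% and 70.4% of the phosphatidylserine synthase sum. All shares depend on the exon lengths used, and the Ormdl shares are uncertain because Ormdl2 shares exon bases with Dnajc14.

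Cers2 and Degs1 were higher in striatum, and so were the markers of mature oligodendrocytes, the myelin-forming cells, and of other lists. The sum of 18 such markers was 62703 to 132098 in WT cortex, 87907 to 103376 in KO cortex, 238835 to 326983 in WT striatum and 165571 to 336948 in KO striatum. Of the 18, 18 were called higher in striatum in WT (median log2 fold change 1.41) and 17 in KO (median 1.17). Also called higher in WT were 18 of 18 striatal projection neuron, 9 of 9 ependymal and 11 of 12 thalamic, septal and pallidal markers. So were 9 of 12 microglial and 7 of 8 oligodendrocyte precursor markers, while 12 of 13 cortical excitatory markers were called lower. Within WT striatum Degs1 was highest in replicate 5 (3108), and the oligodendrocyte sum in replicate 8 (326983). WT cortex replicate 7 had the lowest oligodendrocyte sum of the 15 libraries. Among the cortex libraries it was the lowest for 6 of the 34 genes, a share near the 18.6% of all genes. These were Sptlc1, Sptlc2, Cers2, Cers5, Degs1 and Smpd3. The part of oligodendrocytes or of the other cell types in these differences was not tested.

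Of the enzymes that turn ceramide into complex sphingolipids, the 2 sphingomyelin synthases were called higher in WT striatum, while Ugcg and Cerk were not. Sgms2 (ENSMUSG00000050931, chromosome 3, 131318985 to 131491411, minus strand), the synthase of the plasma membrane, read 81.0, 63.7, 99.6 and 82.2 in WT cortex and 499, 157.5, 123 and 192 in WT striatum. KO cortex gave 116, 122, 85.0 and 77.4 and KO striatum 155.5, 121 and 487. The highest libraries were WT striatum replicate 5 and KO striatum replicate 4, the same that held the high choroid plexus sums, and the remaining 5 striatum libraries lay between 121 and 192. The WT difference was a log2 fold change of 1.355, SE 0.42, limma adjusted p = 0.015, without WT striatum replicate 5 it was 0.94, and without the 3 libraries that stood apart 0.78 (limma adjusted p = 0.01). In KO the tissues overlapped and the difference was not called (log2 fold change 1.08, SE 0.46, limma adjusted p = 0.076).

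Sgms1, the synthase of the Golgi and the more abundant of the pair, made up 89.0% ± 1.4 of their sum per kilobase in WT cortex (SD, n = 4) and 80.1% ± 8.7 in WT striatum (SD, n = 4). It read 1152, 921, 1133 and 1276 in WT cortex and 1724, 1375, 1172 and 1796 in WT striatum, which overlap (log2 fold change 0.425, SE 0.14, limma adjusted p = 0.018). That call was lost without WT cortex replicate 6 (adjusted p = 0.067), WT striatum replicate 5 (0.057) or WT striatum replicate 8 (0.06), and without the 3 libraries together the difference was 0.19 (adjusted p = 0.15). In KO it was a log2 fold change of 0.26, SE 0.15, limma adjusted p = 0.19, not called. Ugcg, which makes glucosylceramide, stood at 2445 ± 124 (SD, n = 4) in WT cortex and 2471 ± 74.3 (SD, n = 4) in WT striatum (log2 fold change 0.016, SE 0.057, limma adjusted p = 0.83), with an interval of -0.10 to 0.14 on the log2 scale. Cerk, which phosphorylates ceramide, stood at 2365 ± 277 (SD, n = 4) and 2239 ± 372 (SD, n = 4), with a log2 fold change of -0.086, SE 0.13, limma adjusted p = 0.6.

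Of the 3 genes of ganglioside synthesis, St3gal5 and B4galnt1 were called lower in striatum in both genotypes. Of all genes, 25.7% were called lower in WT and 19.5% in KO. St3gal5 (ENSMUSG00000056091, chromosome 6, 72097592 to 72154571, plus strand) makes GM3, the parent of nearly all brain gangliosides, and had the highest level per kilobase of the 34 genes in cortex, 1502 ± 85.3 in WT (SD, n = 4). Its counts were 4102, 4042, 3977 and 3605 in WT cortex and 2879, 2406, 2449 and 2299 in WT striatum, and 3675, 3739, 4037 and 3764 in KO cortex and 2482, 2064 and 2625 in KO striatum. The lowest cortex library stood well above the highest striatum library. The differences were log2 fold changes of -0.65, SE 0.081, limma adjusted p = 1.4e-05 in WT and -0.68, SE 0.088, limma adjusted p = 4.1e-05 in KO.

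B4galnt1 (ENSMUSG00000006731, chromosome 10, 127165225 to 127172330, plus strand) adds the sugar that leads from GM3, GD3 and their kin to the complex gangliosides. It read 2894, 2930, 2879 and 2892 in WT cortex, a narrow range, and 2123, 1868, 2103 and 1712 in WT striatum. KO cortex gave 2913, 2641, 2749 and 2693 and KO striatum 2176, 1760 and 1621. As with St3gal5, the tissues did not overlap. The differences were log2 fold changes of -0.58, SE 0.085, limma adjusted p = 6.2e-05 in WT and -0.58, SE 0.092, limma adjusted p = 0.00021 in KO. Slc26a10 on the opposite strand shares 20.7% of its exon bases, so this count is uncertain in part. St8sia1, which makes GD3, stood at 1682 ± 51.9 (SD, n = 4) in WT cortex and 1867 ± 404 (SD, n = 4) in WT striatum (log2 fold change 0.125, SE 0.15, limma adjusted p = 0.52) and was not called. Its highest library was KO striatum replicate 4 at 2848, against 1381 to 2322 in the other 6 striatum libraries.

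Among the enzymes of breakdown, Smpd3 and Acer2 were higher and Smpd1 lower in WT striatum, and 4 of the 7 were not called. Of all genes, 24.9% were called higher and 25.7% lower. Smpd3 (ENSMUSG00000031906, chromosome 8, 106252548 to 106337988, minus strand) encodes neutral sphingomyelinase 2, a membrane enzyme found mostly in neurons. It read 2328, 2048, 1829 and 2554 in WT cortex and 7064, 4771, 6261 and 3854 in WT striatum, and 1926, 2058, 1918 and 2014 in KO cortex and 3917, 3744 and 2400 in KO striatum. The lowest values of each striatum group were WT replicate 8 and KO replicate 4, which also had the lowest sums of striatal projection neuron markers in their groups, and KO replicate 4 lay within the range of WT cortex. The tissue difference was a log2 fold change of 1.30, SE 0.18, limma adjusted p = 3.6e-05 in WT and 0.73, SE 0.19, limma adjusted p = 0.0085 in KO. Per kilobase Smpd3 was the ninth highest of the 34 genes in WT cortex, at 418.5, and the second highest in WT striatum, at 1049.

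Acer2 (ENSMUSG00000038007, chromosome 4, 86874396 to 86934822, plus strand), a ceramidase of the Golgi, read 197, 148, 201 and 210.5 in WT cortex and 359, 366, 290.5 and 383 in WT striatum, and 211, 242, 250.5 and 165 in KO cortex and 384, 405 and 331 in KO striatum. All striatum libraries were above all cortex libraries. The difference was a log2 fold change of 0.89, SE 0.145, limma adjusted p = 0.00015 in WT and 0.79, SE 0.16, limma adjusted p = 0.0012 in KO. Acer3, a ceramidase of unsaturated long-chain substrates, stood at 333.5 ± 7.26 (SD, n = 4) in WT cortex and 409 ± 59.3 (SD, n = 4) in WT striatum, not called (log2 fold change 0.28, SE 0.125, limma adjusted p = 0.073). In KO it was called higher (log2 fold change 0.39, SE 0.135, limma adjusted p = 0.033), but not without KO striatum replicate 4 (0.23, adjusted p = 0.18) or the 3 libraries that stood apart (0.23, adjusted p = 0.096), and not without KO cortex replicate 1, 2 or 4 or KO striatum replicate 3 (adjusted p = 0.057 to 0.08).

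Smpd1, the acid sphingomyelinase of lysosomes, was slightly lower in WT striatum. It read 2607, 2809, 2648 and 2455 in WT cortex and 2479, 2248, 2060 and 2215 in WT striatum, which overlap (log2 fold change -0.23, SE 0.069, limma adjusted p = 0.013), and in KO the difference was a log2 fold change of -0.155, SE 0.075, limma adjusted p = 0.12, not called. Asah1, the acid ceramidase, stood at 1475 ± 58.8 (SD, n = 4) and 1554 ± 94.4 (SD, n = 4), with a log2 fold change of 0.074, SE 0.051, limma adjusted p = 0.25. Galc, the lysosomal galactosylceramidase that is lost in Krabbe disease, stood at 839 ± 67.0 (SD, n = 4) and 923 ± 58.0 (SD, n = 4), with a log2 fold change of 0.14, SE 0.065, limma adjusted p = 0.09. Smpd2, a further neutral sphingomyelinase, stood at 269 ± 16.6 (SD, n = 4) and 279 ± 36.1 (SD, n = 4), with a log2 fold change of 0.046, SE 0.11, limma adjusted p = 0.74, and Mical1 on the opposite strand shares 20.3% of its exon bases.

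The steepest tissue difference of the group was that of Sphk1 (ENSMUSG00000061878, chromosome 11, 116530925 to 116536674, plus strand), a sphingosine kinase of the cytoplasm. Its counts were low, 60.3, 67.5, 85.9 and 77.2 in WT cortex and 25.02, 25.4, 8.97 and 15.9 in WT striatum. KO cortex gave 60.75, 88.9, 91.25 and 66.25 and KO striatum 14.2, 14.6 and 39.2. Every striatum library was below every cortex library, and KO striatum replicate 4 was the highest of striatum. The difference was a log2 fold change of -1.99, SE 0.34, limma adjusted p = 0.00023 in WT and -1.85, SE 0.37, limma adjusted p = 0.0012 in KO, on the scale of log2 of the count plus 1, which understates the change of a low gene. Sphk1 was 10.4% ± 1.6 of the summed sphingosine kinase level per kilobase in WT cortex (SD, n = 4) and 3.26% ± 1.6 in WT striatum (SD, n = 4).

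Sphk2, the kinase that makes up the rest, stood at 546 ± 14.8 (SD, n = 4) in WT cortex and 499 ± 56.0 (SD, n = 4) in WT striatum (log2 fold change -0.14, SE 0.078, limma adjusted p = 0.16). In KO it read 593, 585, 613 and 618 in cortex and 461, 508 and 546 in striatum, without overlap, and was called lower (log2 fold change -0.26, SE 0.085, limma adjusted p = 0.027). That call was lost without KO cortex replicate 3 or 4 or KO striatum replicate 2 or 3 (adjusted p = 0.052 to 0.12). Dbp, a gene of the circadian clock, and Rpl18 lie on the opposite strand and share 21.9% of the exon bases of Sphk2. Dbp was called higher in WT striatum (log2 fold change 0.57, SE 0.14, limma adjusted p = 0.0041), opposite in sign to Sphk2. Sgpl1, the lyase that ends the pathway by cleaving sphingosine-1-phosphate, stood at 948 ± 27.9 (SD, n = 4) and 939 ± 61.6 (SD, n = 4), with a log2 fold change of -0.015, SE 0.085, limma adjusted p = 0.89.

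Of the phosphatidylserine genes, the 2 synthases were not called between tissues and the decarboxylase was lower in striatum. Ptdss1, which exchanges the head group of phosphatidylcholine for serine, stood at 1777 ± 35.8 (SD, n = 4) in WT cortex and 1917 ± 201 (SD, n = 4) in WT striatum (log2 fold change 0.10, SE 0.069, limma adjusted p = 0.23). Ptdss2, which does so with phosphatidylethanolamine, stood at 1034 ± 37.8 (SD, n = 4) and 1051 ± 6.25 (SD, n = 4), with a log2 fold change of 0.024, SE 0.049, limma adjusted p = 0.7. Neither was called in either genotype, and the intervals in WT were -0.045 to 0.25 for Ptdss1 and -0.080 to 0.13 for Ptdss2 on the log2 scale. Pisd (ENSMUSG00000023452, chromosome 5, 32736301 to 32785646, minus strand), the mitochondrial decarboxylase that makes phosphatidylethanolamine from phosphatidylserine, read 525.5, 536, 547 and 540.4 in WT cortex and 400.3, 401, 495 and 406 in WT striatum, and 509, 499.7, 483 and 532 in KO cortex and 414, 386 and 411 in KO striatum. Striatum was below cortex without overlap within each genotype, though WT striatum replicate 7 lay within the KO cortex range. The differences were log2 fold changes of -0.34, SE 0.072, limma adjusted p = 0.0012 in WT and -0.325, SE 0.078, limma adjusted p = 0.0045 in KO. Predicted genes on the same strand share 20.9% of its exon bases.

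**Figure D3:**
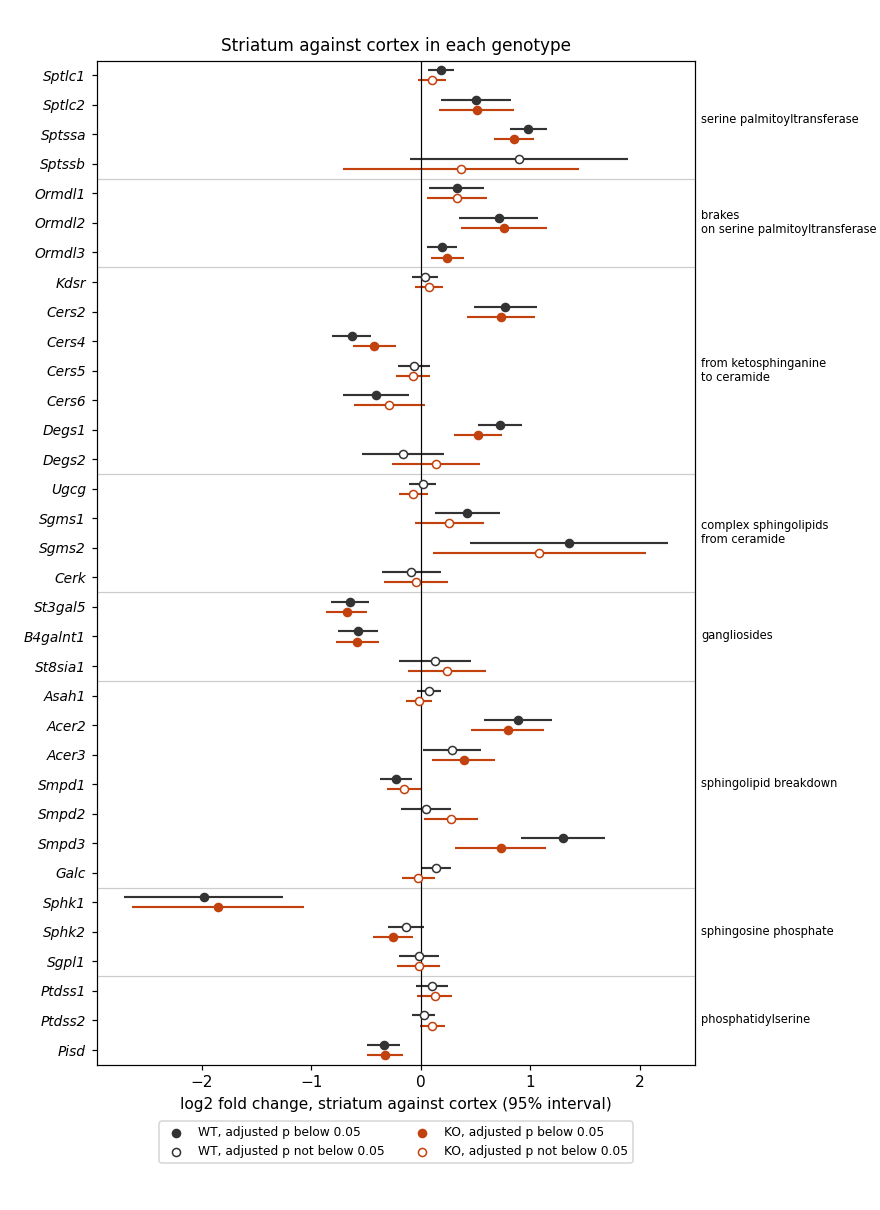
Log2 fold change of striatum against cortex (horizontal axis) for the 34 genes by role (vertical axis), in WT (black) and KO (orange), with 95% intervals, where filled points have an adjusted p below 0.05. In WT 12 filled points lie to the right of 0 and 7 to the left, and in KO 9 and 6.

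ASCT1 is a carrier of serine, the substrate of serine palmitoyltransferase and of the phosphatidylserine synthases, and the comparison of KO with WT asks whether transcripts of these enzymes differ. None of the 34 was called in cortex, against 0.00587% of all genes (1 gene), and none in striatum, against 0.0763% (13 genes). The smallest adjusted p was 1 in cortex and 0.17 in striatum (limma). At an unadjusted p below 0.05 there were 3 of 34 in cortex, against 2.51% of all genes, and 3 of 34 in striatum, against 15.3%. By edgeR and voom none was called in either tissue, and by DESeq2 none in cortex and 2 in striatum, where it called 1.96% of all genes. The median log2 fold change of the 34 was 0.014 in cortex and -0.022 in striatum, and 17 and 16 of them were above 0. For 29 of the 34 the 95% interval lay within a change of 1.5-fold either way in cortex, and for 29 in striatum, against 70.8% and 61.9% of all genes.

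In cortex the groups did not overlap for 4 of the 34, against 4.02% of all genes, namely Ormdl2, Ormdl3, Acer3 and Sphk2. The 4 genes with the smallest p were Ormdl2, Ormdl3, Sptssa and Degs2, all with lower means in KO. The other genes of the first enzyme and its brakes had log2 fold changes of 0.059 (Sptlc1), 0.098 (Sptlc2), -0.066 (Sptssb) and -0.037 (Ormdl1), with a limma adjusted p of 1 each. For Ormdl2 the 4 KO cortex libraries (87.7 to 101) lay below the 4 WT libraries (116 to 139), with a log2 fold change of -0.42, SE 0.17, limma adjusted p = 1 and unadjusted p = 0.026. Dnajc14, which shares its exon bases, gave log2 fold change 0.028, SE 0.051, limma adjusted p = 1. Ormdl3 lay at 889 to 997 in KO cortex and 1016 to 1075 in WT cortex, log2 fold change -0.14, SE 0.064, limma adjusted p = 1, unadjusted p = 0.039. Sptssa lay at 440.1 to 467 in KO cortex and 463 to 529 in WT cortex, where WT replicate 6 stood below the other 3 (log2 fold change -0.18, SE 0.080, limma adjusted p = 1, unadjusted p = 0.044). Degs2 stood at 56.4 ± 7.73 (SD, n = 4) in KO and 71.6 ± 14.3 (SD, n = 4) in WT cortex (log2 fold change -0.33, SE 0.175, limma adjusted p = 1). Among marker lists in cortex, all 14 choroid plexus markers had a log2 fold change above 0 (median 1.32, 0 called), with sums of 1553 to 6677 in KO and 694 to 2165 in WT. None of the 18 striatal projection neuron markers was above 0 (median -0.365, 0 called), with sums of 28017 to 34043 in KO and 29395 to 45571 in WT. Their part in the values of Ormdl2, Ormdl3, Sptssa and Degs2 was not tested.

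In striatum the groups did not overlap for 2 of the 34, Sptssa and Cers4, against 8.07% of all genes. Smpd3, Sptssa, Cers4 and Ormdl2 had the smallest p. For Smpd3 the 3 KO striatum libraries (2400, 3744 and 3917) and the 4 WT libraries (3854 to 7064) overlapped by 1 library, KO replicate 2 lying just above WT replicate 8, and the log2 fold change was -0.70, SE 0.19, limma adjusted p = 0.17, unadjusted p = 0.0025. DESeq2 called it (-0.71, adjusted p = 0.028), and limma called it without WT striatum replicate 8 (-0.86, adjusted p = 0.041), where it called 1.1% of all genes. It was not called in the other alternatives, among them the fits without KO striatum replicate 4 (-0.48, adjusted p = 0.15), without WT striatum replicate 5 (-0.57, adjusted p = 0.37) and without the 3 libraries that stood apart (-0.51, adjusted p = 0.085). Sptssa lay at 724 to 929 in KO and 936 to 1123 in WT striatum (log2 fold change -0.31, SE 0.087, limma adjusted p = 0.17, unadjusted p = 0.0029). DESeq2 called it just under the threshold (-0.30, adjusted p = 0.05 when rounded), and limma without KO striatum replicate 4 (-0.41, adjusted p = 0.025). It was not called in the other alternatives, among them the fits without KO striatum replicate 2 (-0.23, adjusted p = 0.25) and without the 3 libraries that stood apart (-0.34, adjusted p = 0.071).

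Cers4 lay at 1480 to 1986 in KO striatum and 1251 to 1439 in WT striatum (log2 fold change 0.29, SE 0.090, limma adjusted p = 0.19, unadjusted p = 0.006). KO replicate 3 stood above the other 2, and without it the log2 fold change was 0.15 (limma adjusted p = 0.41). Ormdl2 lay at 129 to 215 in KO and 168 to 293 in WT striatum (log2 fold change -0.38, SE 0.185, limma adjusted p = 0.35), and leaving out 1 library moved it between -0.57, without KO replicate 4, and -0.21, without KO replicate 3. Sptssb was not among the 4 smallest p with all libraries (log2 fold change -0.59, SE 0.51, limma adjusted p = 0.6). Without KO striatum replicate 4, whose Sptssb of 399 was the highest of the 15 libraries, the remaining KO libraries (48.2 and 65.7) lay below all WT striatum libraries (127 to 278). The log2 fold change was then -1.53 and called (limma adjusted p = 0.014). In that fit 2 of the 34 genes were called, Sptssb and Sptssa, against 3.03% of all genes. Without the 3 libraries that stood apart Sptssb was also called, at -1.33 (limma adjusted p = 0.0055), and 1.51% of all genes were. That fit keeps only KO striatum replicates 2 and 3 and WT striatum replicates 6 and 7. It too leaves out KO replicate 4, and with WT replicate 8 it drops the highest Sptssb values of striatum (399 and 278).

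Several marker lists also leaned 1 way with genotype in striatum. The 18 striatal projection neuron markers all had a log2 fold change below 0 in KO against WT striatum (median -0.79, 0 called), their sums being 80809 to 164531 in KO and 146342 to 300923 in WT. The 13 cortical excitatory markers had a median of 1.16 (1 called higher), with sums of 8687 to 14066 in KO and 5371 to 9096 in WT. Of the 18 oligodendrocyte markers 1 had a log2 fold change above 0 (median -0.23, 0 called), and of the 12 microglial markers none (median -0.24, 0 called). Of the 14 choroid plexus markers 12 were above 0 (median 0.27, 0 called). The part of these differences in the values of Smpd3, Sptssa, Cers4 and Sptssb was not tested.

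The genotype effects of the 2 tissues were also compared with each other. None of the 34 was called by limma, against 0.00587% of all genes called (1 gene). At an unadjusted p below 0.05 there was 1, Smpd3, against 4.9% of all genes. By edgeR, DESeq2 and voom there was none. For Smpd3 the KO effect in striatum minus that in cortex was -0.57 on the log2 scale (SE 0.26, limma adjusted p = 0.96), which was -0.34 without KO striatum replicate 4. The next smallest p belonged to Cers4 (log2 fold change 0.21, SE 0.12, limma adjusted p = 0.96), Galc (log2 fold change -0.16, SE 0.096, limma adjusted p = 0.96) and Smpd2 (log2 fold change 0.23, SE 0.16, limma adjusted p = 0.97). Without the 3 libraries that stood apart 1 of the 34 was called, Sptssb, with a difference of -1.27 (adjusted p = 0.049), against 0.264% of all genes.

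**Figure D4:**
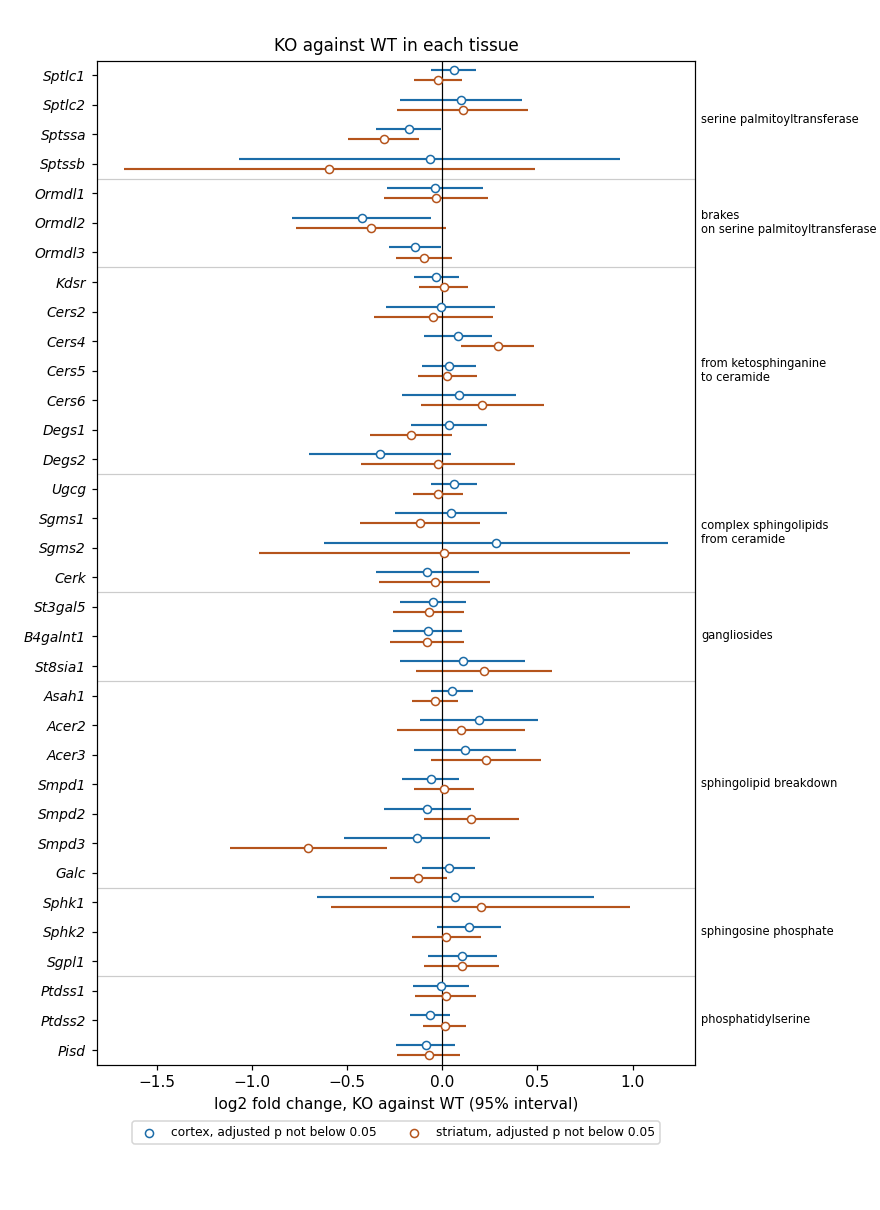
Log2 fold change of KO against WT (horizontal axis) for the 34 genes by role (vertical axis), in cortex (blue) and striatum (orange), with 95% intervals, where every point is open because no adjusted p was below 0.05. Smpd3 in striatum (-0.70) lies farthest from 0, and 29 of the 34 intervals in each tissue lie within a 1.5-fold change.

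**Figure D5:**
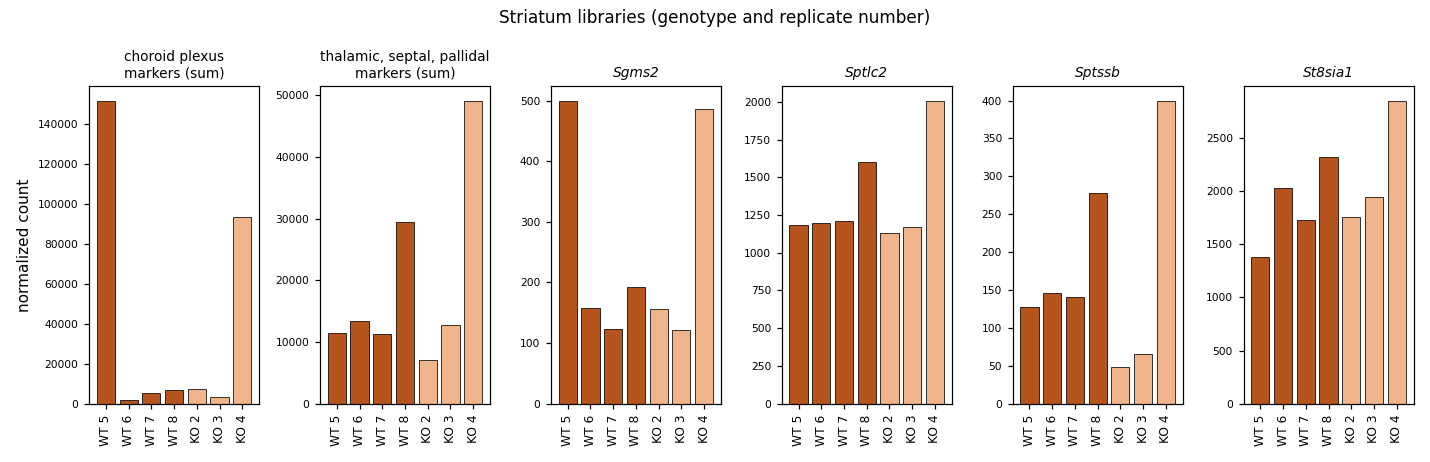
Normalized count (vertical axes, from 0) of 2 marker sums and 4 genes in the 7 striatum libraries (horizontal axes: genotype and replicate number). Sgms2 is high in WT 5 and KO 4 as the choroid plexus sum is, and Sptlc2 and Sptssb are highest in KO 4 and WT 8 as the thalamic, septal and pallidal sum is.

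For the 34 genes, the highest and lowest of the 7 striatum libraries were counted beside the same counts over all genes. KO striatum replicate 4 was the highest for 10 of the 34 genes (21.4% of all genes) and the lowest for 3 (21%), and KO striatum replicate 3 was the highest for 3 (19.7%) and the lowest for 10 (19.3%). WT striatum replicate 5 was the highest for 7 (20%) and the lowest for 6 (22.3%), and WT striatum replicate 8 the highest for 7 (10.3%) and the lowest for 0 (9.9%).

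Other genes of the same pathways, from lists that extend the 36, showed the same contrast between tissue and genotype. Of 113 such genes tested, 38 were called higher and 31 lower in WT striatum than in WT cortex, and 34 higher and 26 lower in KO, where the shares over all genes were 24.9% and 25.7% in WT and 18.4% and 19.5% in KO. The counts of each list below are read against those shares in WT. Of the 113, limma called none between genotypes in either tissue. At an unadjusted p below 0.05 there were 2 of the 113 in cortex (2.51% of all genes) and 19 in striatum (15.3% of all genes). EdgeR and voom called none, and DESeq2 called none in cortex and 2 in striatum (St3gal1 and Etnk2). The genes named from these lists are those with the largest changes in WT, and all but St3gal1 were also called in the KO tissue comparison. Among 16 genes of ceramide transport and fatty acyl supply, 8 were higher and 1 lower in WT (24.9% and 25.7% of all genes). Fa2h, which hydroxylates the fatty acids of myelin galactolipids, stood at 690.0 ± 217 in WT cortex (SD, n = 4) and 1731 ± 121 in WT striatum (SD, n = 4), with a log2 fold change of 1.39, SE 0.23, limma adjusted p = 0.0002. Elovl7, a fatty acid elongase, gave log2 fold change 1.35, SE 0.29, limma adjusted p = 0.0013, and Gltp, a glycolipid transfer protein, log2 fold change 0.96, SE 0.17, limma adjusted p = 0.00026. Fam57b, a ceramide synthase homologue, was lower (log2 fold change -1.045, SE 0.13, limma adjusted p = 1.3e-05). Of the 3 galactolipid genes 2 were higher, Ugt8a, which makes galactosylceramide, at 1432 ± 308 in WT cortex (SD, n = 4) and 3934 ± 243 in WT striatum (SD, n = 4), with a log2 fold change of 1.485, SE 0.21, limma adjusted p = 4.3e-05, and Gal3st1, which sulfates it (log2 fold change 0.705, SE 0.22, limma adjusted p = 0.015). These are genes of myelin-forming cells, and the oligodendrocyte sums given above were higher in the same tissue. Their part in these differences was not tested.

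Among 18 other genes of ganglioside and glycolipid synthesis, 2 were higher and 7 lower in WT striatum (24.9% and 25.7% of all genes). The sialyltransferase St8sia5, of the c-series and related gangliosides, stood at 1348 ± 122 in WT cortex (SD, n = 4) and 427 ± 67.2 in WT striatum (SD, n = 4), with a log2 fold change of -1.66, SE 0.14, limma adjusted p = 2.7e-07, and St3gal1 was lower too (log2 fold change -0.74, SE 0.15, limma adjusted p = 0.00082). St8sia3, another sialyltransferase, went the other way, at 4235 ± 337 in WT cortex (SD, n = 4) and 10626 ± 2456 in WT striatum (SD, n = 4), with a log2 fold change of 1.30, SE 0.19, limma adjusted p = 6.1e-05, as did St6galnac3 (log2 fold change 0.73, SE 0.145, limma adjusted p = 0.00077). Of 22 lysosomal and other breakdown genes, 9 were higher, led by Smpdl3b (log2 fold change 1.88, SE 0.38, limma adjusted p = 0.0008), Asah2 (log2 fold change 0.85, SE 0.15, limma adjusted p = 0.00024) and the sialidase Neu4 (log2 fold change 0.82, SE 0.15, limma adjusted p = 0.00048), and 5 were lower, led by Smpd4, a neutral sphingomyelinase (log2 fold change -1.21, SE 0.14, limma adjusted p = 7.9e-06). Of 13 genes of sphingosine phosphate transport and reception, 5 were higher and 3 lower. The receptor S1pr5, an oligodendrocyte receptor, was higher (log2 fold change 1.004, SE 0.165, limma adjusted p = 0.00016), as were the phosphatases Plpp2 (log2 fold change 1.41, SE 0.19, limma adjusted p = 3.4e-05) and Sgpp2 (log2 fold change 0.86, SE 0.20, limma adjusted p = 0.0024), and the receptor S1pr3 was lower (log2 fold change -0.76, SE 0.17, limma adjusted p = 0.0015).

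On the phosphatidylserine side, 8 of 28 genes of transport, exposure and turnover were higher and 11 lower in WT striatum (24.9% and 25.7% of all genes). Xkr8, a scramblase that exposes phosphatidylserine, was higher (log2 fold change 1.18, SE 0.135, limma adjusted p = 6.3e-06). Serinc2, of a family named for serine incorporation (log2 fold change -1.83, SE 0.53, limma adjusted p = 0.0095), and Osbpl10, a lipid transfer protein (log2 fold change -1.66, SE 0.15, limma adjusted p = 8.3e-07), were lower. Of 13 genes of phosphatidylethanolamine and phosphatidylcholine synthesis, 4 were higher and 4 lower. Etnk2, an ethanolamine kinase, stood at 249 ± 48.8 in WT cortex (SD, n = 4) and 62.7 ± 13.8 in WT striatum (SD, n = 4) and was lower (log2 fold change -1.97, SE 0.24, limma adjusted p = 9.7e-06), while the phosphotransferases Chpt1 (log2 fold change 0.69, SE 0.115, limma adjusted p = 0.00017), Ept1 (log2 fold change 0.45, SE 0.063, limma adjusted p = 4.6e-05) and Cept1 (log2 fold change 0.44, SE 0.064, limma adjusted p = 5.7e-05) were higher.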

How the data were processed

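Bulk RNA-seq was deposited for 15 libraries in 4 groups. Per the submitters' processing notes, the tools were FastQC 0.11.5, cutadapt 1.1, TopHat2 2.1.1, HTSeq 0.6.0 and DESeq2 1.12.4 with genome build GRCm38. The annotation release and strand setting are not given in the sources used here. The signal values the authors deposited are gene counts divided by 1 size factor per library, as tested on the table: dividing by the value of 1 read gave whole reads for 100% of values, within 0.001. Totals of these reads give the depth.

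Genes with 10 or more in at least 3 libraries (17030) were fitted with limma 3.58.1 (trend, R 4.3.3) on log2(normalized count + 1), with 4 group means over 15 libraries and 5 comparisons. P-values were adjusted by Benjamini-Hochberg over all genes, and an adjusted p below 0.05 is a call. The pseudocount understates changes of low genes. Levels were compared between genes after division by the length of all exons of GENCODE M21, which 99% of the table's genes matched. The exception is the undivided means of Cers4 and Cers2, given beside their shares.

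On the recovered reads, edgeR 4.0.16 called 1 gene in KO against WT cortex and 17 in striatum, and DESeq2 1.42.0 called 3 and 333, against 1 and 13 by limma. Other alternatives were pseudocounts, filters, TMM scaling, voom, only the libraries compared, libraries left out and a replicate block. The fit was tested on simulated data.

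The 36 genes, their roles and the pathway and marker lists were chosen with earlier results of these data known. All 36 are accounted for, with full values for up to 12 called genes in each direction of a comparison, for the 4 of smallest p where fewer than 3 were called, and for up to 4 called genes of each pathway list with the largest change in WT. One item that this rule names is not reported here. Figures were drawn with matplotlib 3.10.9.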

Additional observations from a re-analysis of the deposited data

Results flagged for a closer look

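Among 102 sets of 4 libraries (34 genes in 3 groups), 7 held a library whose gap to its nearest neighbour was over 0.829 of the range of its group (Dixon's 95% limit), where chance gives about 5.1. Sptlc2 was 1600 in WT striatum replicate 8, against 1181 to 1212 in the other 3, and Sptssb was 277.7 in the same library, against 127.4 to 146.3. That library also held the second highest sum of thalamic, septal and pallidal markers of the 15. Sptssa was 463.1 in WT cortex replicate 6, against 521.4 to 529.3. Cers6 was 1891 in WT cortex replicate 8, against 1489 to 1528. Cerk was 2173 in KO cortex replicate 2, against 2241 to 2252. Smpd1 was 2627 in KO cortex replicate 3, against 2477 to 2484. Pisd was 494.7 in WT striatum replicate 7, against 400.3 to 405.9.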

How the results depend on the processing

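No value changed sign under any alternative for the genes called or named by smallest p. Of the 34 genes, limma called 17 to 21 between tissues in WT (19 with all libraries) when 1 library was left out, and 13 to 17 in KO (15 with all libraries). Over all 17030 genes the same fits called 3719 to 4557 higher and 3861 to 4696 lower in WT. In KO they called 2624 to 3296 higher and 2792 to 3486 lower. Between genotypes in striatum the 0 calls became 2 by DESeq2, 0 to 2 when 1 library was left out and 1 without the 3 libraries that stood apart, and the difference between tissues went from 0 to 1 without those 3. The cause of these changes was not tested. Calls lost between tissues when libraries were left out are given beside each gene. With only the compared libraries in the fit Sptlc2 (adjusted p = 0.067) and Acer3 (0.076) were not called by limma in KO. Same-numbered libraries correlated at 0.00369 to 0.142 in 7 pairs, 2 of them above 0.1, and libraries of other numbers at -0.168 to 0.127. These values do not settle whether equal numbers mark 1 animal. The main fit did not take them as pairs, and its p-values between tissues treat the libraries as independent. For 5 of 7 striatum and 6 of the cortex libraries the closest was that of its own number. With a replicate block 19 of the 34 were called between tissues in WT (48.8% of all genes) and 12 in KO (31.5% of all genes). In KO Ormdl3 (limma adjusted p = 0.051), Acer3 (0.059) and Sphk2 (0.069) were lost. For the difference of the genotype effects that fit called none of the 34, and none of all genes. No paired analysis of KO against WT was possible because the numbers are nested in genotype. Depth (22990233 reads or more) limits mainly Sphk1, Degs2, Sptssb, Sgms2 and Ormdl2, with counts near or below 100 in some groups.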
